A study of Mus musculus with 6 samples.

Results

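The genes described here encode the granule proteins and ribonucleases of eosinophils: Prg2, Prg3, Epx, Ear1, Ear2 and Ear6. They were taken by name, with earlier results of these data known. All 6 were found among the 46603 genes listed for each bone marrow library. The libraries came from 3 mice lacking nuclear myosin 1 by knockout (NM1 KO) and from 3 wild-type mice (NM1 WT), all on the C57/Bl6 background and 8 months old. Nuclear myosin 1 is the nuclear isoform made from Myo1c, a class I myosin gene. Each library holds RNA of whole marrow spun out of the leg bones of 1 mouse. No cell type was sorted, the labels give no sex, and they name no treatment.

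Eosinophils are granulocytes that form in the marrow from myeloid precursors under the cytokines interleukin 5, interleukin 3 and GM-CSF. Their large granules are filled with cationic proteins that damage parasites and host tissue: major basic protein in the crystalline core, and eosinophil peroxidase and ribonucleases in the matrix around it. The granules are loaded while the cell is still a precursor in the marrow, so the messages for these proteins are abundant there and decline as the cell matures.

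NM1 KO libraries held 21101616 to 22618802 counts and NM1 WT libraries 15145052 to 17580660, so depth differed with genotype. Levels are given as CPM, the usual depth-scaled count with TMM factors, where 1 CPM stands for 14.7 to 23.0 counts. The test was edgeR's quasi-likelihood test over 15069 genes, and a gene was called at an adjusted p under 0.05. Y-linked genes were detected in 2 of 3 NM1 KO libraries and in 1 of 3 NM1 WT libraries, NM1 WT 2. Eosinophil surface markers were present in all 6 libraries at low levels: Siglecf (4.14 to 9.91 CPM), Il5ra (2.06 to 6.92 CPM) and Ccr3 (10.3 to 21.4 CPM). Myo1c had 73.8, 59.1 and 59.7 CPM in NM1 KO 1 to 3, against 89.8, 115 and 102 CPM in NM1 WT 1 to 3. Its log2 fold change of -0.67 (SE 0.14) missed the threshold (edgeR adjusted p = 0.0516), and these counts add up all isoforms, so they do not check the loss of the nuclear form.

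All 6 granule genes passed the low-count filter, and all 6 fell in NM1 KO marrow, to between 25.9% and 36.7% of the NM1 WT level. Their summed level was 1170, 675 and 970 CPM in NM1 KO 1 to 3, against 3204, 2009 and 3339 CPM in NM1 WT 1 to 3. The sum averaged 938 ± 249 CPM in NM1 KO marrow, against 2851 ± 732 CPM in NM1 WT marrow (SD, n = 3 each), a ratio of 0.329 with no overlap (2-sided exact permutation p = 0.1, the smallest that 3 against 3 allows). Of all tested genes, 0.186% were called lower in NM1 KO and 0.591% higher (0.776% in either direction), and 9.75% lay lower without overlap between the genotypes (20.5% in either direction). For each of the 6 granule genes the genotypes did not overlap. In bulk marrow, fewer eosinophil precursors and less message per cell cannot be told apart. NM1 KO 2 was the lowest of the NM1 KO libraries and NM1 WT 2 the lowest of the NM1 WT libraries for each of the 6.

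**Figure D1:**
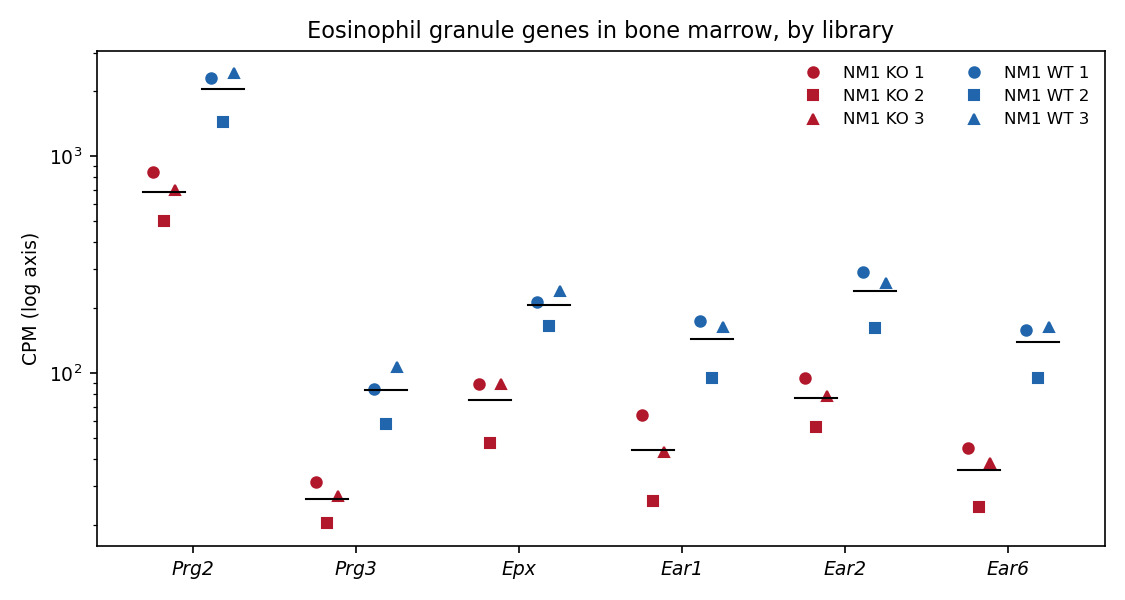
Level of each granule gene in each library, in CPM on a log axis, with NM1 KO in red left of NM1 WT in blue, 1 symbol per mouse and a bar at the mean. Every NM1 KO point lies below every NM1 WT point of the same gene, and Prg2 is the most abundant by far, with means of 680 CPM in NM1 KO against 2043 CPM in NM1 WT.

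Per kilobase of merged exon, the order of the levels was the same in both genotypes. Prg2 led with 812 CPM in NM1 KO against 2438 CPM in NM1 WT, followed by Ear2 (106 against 331 CPM), Ear1 (60.7 against 196 CPM), Ear6 (37.9 against 146 CPM), Prg3 (27.7 against 87.7 CPM) and Epx (27.5 against 74.9 CPM). Apart from Prg2 and Ear2, neighbours in this order overlapped between libraries of the same genotype. Within each single library the order was nonetheless the same, except that Epx stood above Prg3 in NM1 KO 3.

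Prg2 (ENSMUSG00000027073, chr2:84980461-84983632 on GRCm38, plus strand) encodes major basic protein, the toxic core protein of the granule. It had 845, 501 and 694 CPM in NM1 KO 1 to 3, against 2286, 1435 and 2408 CPM in NM1 WT 1 to 3. The highest NM1 KO library lay 41.1% below the lowest NM1 WT library. By mean CPM the gene ranked 138 among 21624 protein-coding genes in NM1 KO and 28 in NM1 WT. Its level was 3.00-fold lower in NM1 KO, a log2 fold change of -1.59 (SE 0.22, edgeR adjusted p = 0.0107).

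Prg3 (ENSMUSG00000027072, chr2:84988215-84993886, plus strand) lies 4.6 kb downstream of Prg2 and encodes a second, homologous major basic protein. The coding sequences of Prg2 and Prg3 were 63.6% identical, and they shared no 50-base stretch of transcript. Prg3 had 31.5, 20.3 and 27.1 CPM in NM1 KO 1 to 3, against 84.6, 58.2 and 107 CPM in NM1 WT 1 to 3. All NM1 KO libraries were thus below all NM1 WT libraries, and the log2 fold change was -1.66 (SE 0.22, edgeR adjusted p = 0.00815). Prg2 and Prg3 thus differed widely in level per kilobase, while their log2 fold changes lay within an SE of each other.

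Epx (ENSMUSG00000052234, chr11:87864000-87875536, minus strand) encodes eosinophil peroxidase, a haem enzyme that turns halide ions into microbicidal acids. It had 88.9, 47.5 and 89.2 CPM in NM1 KO 1 to 3, against 212, 165 and 238 CPM in NM1 WT 1 to 3. The groups did not overlap, and the log2 fold change was -1.45 (SE 0.23, edgeR adjusted p = 0.0210). Without NM1 WT 1 the adjusted p was 0.0737, and without NM1 WT 3 it was 0.0607. Epx lies 12.2 Mb from Myo1c, on the chromosome that carries the knockout, in a cluster with the other haem peroxidase genes Mpo and Lpo. Mpo, the myeloperoxidase of neutrophil precursors, ends 59.6 kb from Epx and overlapped between genotypes. It had 868, 808 and 1060 CPM in NM1 KO 1 to 3, against 983, 1451 and 988 CPM in NM1 WT 1 to 3 (log2 fold change -0.32, SE 0.17, edgeR adjusted p = 0.374). Lpo, lactoperoxidase of secretory glands, had at most 1.20 CPM in any library.

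The 250 bases before the RefSeq start are shown for Prg3 and Epx, since the 2 genes moved alike from different chromosomes. In Prg3 (chr2:84987965-84988214, GRCm38.p6, plus strand) capitals mark the core GATAA read on the reverse strand, and in Epx (chr11:87875537-87875786, GRCm38.p6, minus strand) they mark TATAAA.
Prg3: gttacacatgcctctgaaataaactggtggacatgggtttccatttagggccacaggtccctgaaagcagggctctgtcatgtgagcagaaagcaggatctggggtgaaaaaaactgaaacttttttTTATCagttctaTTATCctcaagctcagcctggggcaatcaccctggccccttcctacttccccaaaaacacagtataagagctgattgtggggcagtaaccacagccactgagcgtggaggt
Epx: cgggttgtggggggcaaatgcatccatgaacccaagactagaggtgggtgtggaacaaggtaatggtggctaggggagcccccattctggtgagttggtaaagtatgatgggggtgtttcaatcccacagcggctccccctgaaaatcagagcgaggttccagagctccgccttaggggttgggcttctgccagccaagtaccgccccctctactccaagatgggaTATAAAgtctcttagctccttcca
The GATA motif AGATAA, the C/EBP core TTGCNNCAA and the ETS core GAGGAA, searched on both strands, stood in none of the 5 members with a RefSeq window. Of 32851 mouse promoter windows of the same length, 9.99%, 1.74% and 23.3% held them. The shorter GATAA, which AGATAA contains and which was added after the windows had been read, stood 123 and 111 bases before the start of Prg3, and 22.6% of all windows held it. TATAAA, also added then, stood 24 bases before the start of Epx and in 12.4% of all windows. A match describes the letters only.

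Ear1, Ear2 and Ear6 are members of the eosinophil-associated ribonuclease family, which in rodents has grown by repeated duplication. They correspond to the human eosinophil cationic protein and eosinophil-derived neurotoxin, and in mice Ear1 and Ear2 are also known from macrophages and monocytes. All 3 lie on chromosome 14. Ear1 (ENSMUSG00000072601, chr14:43818765-43875517, minus strand) and Ear2 (ENSMUSG00000072596, chr14:44102654-44103534, plus strand) are 227.1 kb apart, and Ear6 (ENSMUSG00000062148, chr14:51853699-51854643, plus strand) lies 7750.2 kb beyond Ear2. The annotation places the pseudogenes Ear-ps12 and Ang-ps2 inside the span of Ear1, outside its exons, and Ear-ps9 across its 5′ end, where 17 exon bases of Ear1 overlap it. A long noncoding RNA gene lies across each of Ear1 and Ear2 on the other strand, without exon overlap.

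How alike the copies are decides which reads can be given to 1 gene, so 90-base coding stretches are shown where Ear1 and Ear2 differ least and most. Capitals mark bases at which the 3 genes are not all the same. The first stretch covers coding bases 172 to 261 of each gene (chr14:43819149-43819238 minus strand in Ear1, chr14:44103058-44103147 plus strand in Ear2, chr14:51854169-51854258 plus strand in Ear6, GRCm38), and Ear1 and Ear2 differ at 0 of its bases.
Ear1: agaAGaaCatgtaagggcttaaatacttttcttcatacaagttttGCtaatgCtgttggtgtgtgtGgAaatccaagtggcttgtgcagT
Ear2: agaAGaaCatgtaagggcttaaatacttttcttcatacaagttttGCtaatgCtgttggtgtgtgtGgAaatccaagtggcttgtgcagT
Ear6: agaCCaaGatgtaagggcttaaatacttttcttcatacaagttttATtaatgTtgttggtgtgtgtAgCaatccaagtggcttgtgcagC
The second stretch covers coding bases 82 to 171 (chr14:43819239-43819328 minus strand in Ear1, chr14:44102968-44103057 plus strand in Ear2, chr14:51854079-51854168 plus strand in Ear6). Here Ear2 differs from Ear1 at 7 bases and Ear6 differs from Ear1 at 18.
Ear1: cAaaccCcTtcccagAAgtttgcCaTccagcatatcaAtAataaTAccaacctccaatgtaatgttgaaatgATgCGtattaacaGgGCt
Ear2: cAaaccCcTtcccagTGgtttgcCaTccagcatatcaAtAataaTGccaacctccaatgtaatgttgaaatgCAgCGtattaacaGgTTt
Ear6: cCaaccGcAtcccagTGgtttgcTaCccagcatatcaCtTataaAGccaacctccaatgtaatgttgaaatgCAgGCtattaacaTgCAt
Over the whole coding sequence, Ear1 and Ear2 were 95.1% identical, Ear1 and Ear6 87.3%, and Ear2 and Ear6 87.6%.

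The 250 bases before the RefSeq start were also compared. By the GENCODE annotation that of Ear1 lies inside the span of the gene and that of Ear6 runs into its exon, so they are not all sequence outside the gene. The windows of Ear1 and Ear2 were 99.2% identical, those of Ear1 and Ear6 85.1%, and those of Ear2 and Ear6 85.4%.

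Of the 75-base windows of each transcript, 39.3% of those of Ear1 and 23.4% of those of Ear2 also stood in a transcript of another gene, and 0% of those of Ear6. The genes sharing windows with Ear1 were Ear2, Ear10, Ear-ps2 and Ear-ps9. With 150-base windows the shared portion was 5.67% for Ear1 and 6.32% for Ear2. Prg2, Prg3 and Epx shared no window of 50 bases or more. Neither the read length nor the handling of reads with several alignments is known from the labels, so the counts of Ear1 and Ear2 could be split, dropped or doubled to an unknown degree, while Ear6 shared 1.07% of its 50-base windows.

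**Figure D2:**
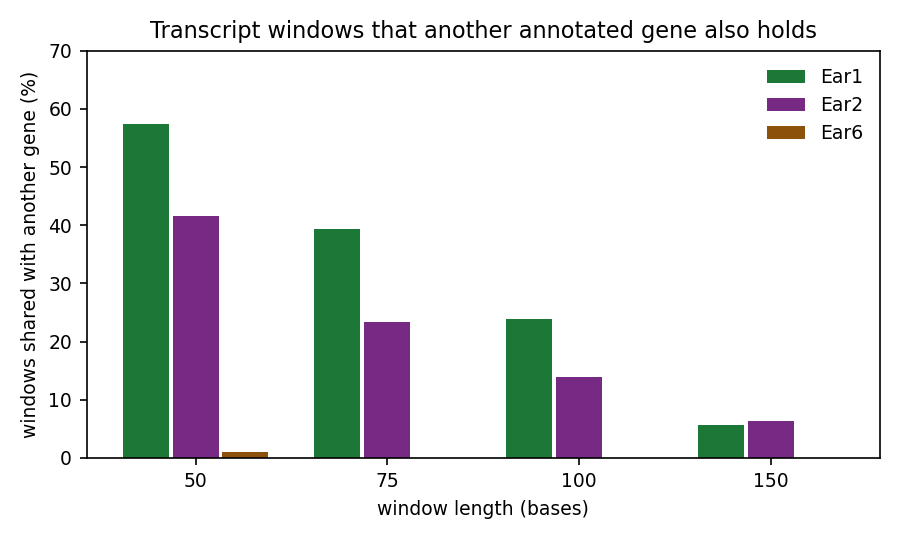
Percentage of the windows of each ribonuclease transcript that also stand in a transcript of another annotated gene, by window length in bases. Ear1 is highest at 50 bases (57.4%) and falls to 5.67% at 150 bases, and Ear6 reaches 1.07% at 50 bases and 0% from 75 bases on.

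Ear6, the copy with the most unambiguous transcript, had 45.1, 24.0 and 38.3 CPM in NM1 KO 1 to 3, against 158, 94.3 and 163 CPM in NM1 WT 1 to 3. Its highest NM1 KO library lay 52.2% below its lowest NM1 WT library, the widest gap of the 6 genes. The log2 fold change was -1.95 (SE 0.25, edgeR adjusted p = 0.00743). Ear2 had 94.7, 56.3 and 78.0 CPM in NM1 KO 1 to 3, against 292, 162 and 261 CPM in NM1 WT 1 to 3. The groups did not overlap, and the log2 fold change was -1.64 (SE 0.23, edgeR adjusted p = 0.0107).

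Ear1 had 63.8, 25.8 and 43.4 CPM in NM1 KO 1 to 3, against 173, 94.6 and 163 CPM in NM1 WT 1 to 3. Its NM1 KO libraries spread the most, the highest being 2.47 times the lowest, and its log2 fold change of -1.69 had the largest error of the 6 (SE 0.30, edgeR adjusted p = 0.0302). The call of Ear1 was lost without NM1 KO 2 (adjusted p = 0.0531), NM1 KO 3 (0.0560), NM1 WT 1 (0.127) or NM1 WT 3 (0.0761), and with Y-linked detection as a covariate (0.0581). To set aside how reads were split among the copies, the counts of all 16 annotated eosinophil ribonuclease genes and pseudogenes were summed to 1 feature. The sum fell by 1.73 on the log2 scale (SE 0.25, edgeR adjusted p = 0.0149). Reads that counting dropped or doubled remain so in that sum.

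Nearly all of that sum came from the 3 members. The pseudogene Ear-ps9 had at most 8 counts in any NM1 KO library, against 12, 4 and 36 counts in NM1 WT 1 to 3, the most among the remaining genes of the sum. Ear10 had 0 counts in every NM1 KO library and 4, 2 and 4 counts in NM1 WT 1 to 3. A count of 0 in a library allows up to 6 counts, or 3 read pairs, there. Ear10 did not pass the low-count filter, so its difference between genotypes was not tested. Rnase2a had at most 8 counts in any library, Rnase2b at most 8, and Ear14 had 0 in all 6. Of 13 further genes of the ribonuclease A family, 4 were tested and 0 passed by edgeR's test, with 1 at an unadjusted p under 0.05. That gene, Rnase12, had 4.13, 2.76 and 2.44 CPM in NM1 KO 1 to 3 and 8.28, 4.06 and 11.2 CPM in NM1 WT 1 to 3, which overlap. Its log2 fold change was -1.33 (SE 0.40, unadjusted p = 0.00655, edgeR adjusted p = 0.139). The adjusted p of Rnase12 was under the threshold with DESeq2 (0.0273), with no low-count filter (0.0130) and without NM1 WT 2 (0.0428). Rnase6, an antimicrobial ribonuclease of phagocytes, had 30.1, 20.7 and 30.2 CPM in NM1 KO 1 to 3 and 34.7, 24.6 and 42.7 CPM in NM1 WT 1 to 3 (log2 fold change -0.33, SE 0.22). Rnase4, a secreted ribonuclease, had a log2 fold change of 0.35 (SE 0.25), and both of these genes overlapped between genotypes.

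The proportions among the granule messages moved far less than their amount. Prg2 was 72.7% ± 1.38 of the summed level in NM1 KO and 71.6% ± 0.415 in NM1 WT (SD, n = 3 each), with overlapping libraries. The ratio of each gene to Prg2 within a library needs no scaling between libraries. For Prg3, Epx, Ear1 and Ear2 this ratio differed between genotypes by -0.06, 0.09, -0.16 and -0.05 on the log2 scale, with overlap in all 4 cases and 2-sided exact permutation p between 0.400 and 0.700. For Ear6 the genotypes did not overlap. Its log2 ratio to Prg2 was -4.23, -4.38 and -4.18 in NM1 KO 1 to 3, against -3.86, -3.93 and -3.89 in NM1 WT 1 to 3. That is a difference of -0.37 without overlap (exact permutation p = 0.1, adjusted over 5 ratios 0.500), where 0.1 is the smallest p that the design allows. The difference of Ear6 ranged from -0.41 to -0.31 with each library left out in turn. That of Ear1 was -0.29 without NM1 KO 1 (exact permutation p = 0.1) and -0.02 without NM1 KO 2, so whether its genotypes overlap rests on single libraries. Within the family, Ear6 held 22.9% ± 0.951 of the summed level of the 3 ribonucleases in NM1 KO and 26.7% ± 1.22 in NM1 WT.

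**Figure D3:**
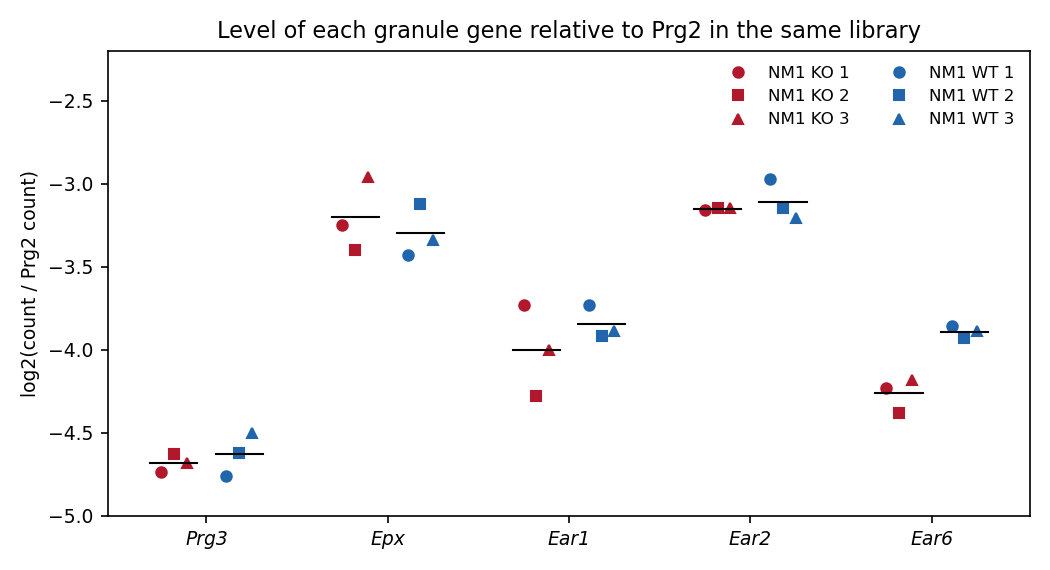
Count of each granule gene relative to Prg2 in the same library, on a log2 scale, with NM1 KO in red left of NM1 WT in blue, 1 symbol per mouse and a bar at the mean. The genotypes overlap for Prg3, Epx, Ear1 and Ear2, and for Ear6 the NM1 KO libraries lie at -4.38 to -4.18, below the NM1 WT libraries at -3.93 to -3.86.

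Other genes of the eosinophil did not all follow the granule genes. Of 11 surface and enzyme genes on the list, 9 were tested, of which 1 fell, 0 rose and 8 missed the threshold. The median log2 fold change of the list was -0.51, against 0.00 over all tested genes. The gene that fell was Alox15, the 12/15-lipoxygenase that eosinophils and some macrophages use to oxidise arachidonic acid. Alox15 had 24.0, 13.3 and 21.9 CPM in NM1 KO 1 to 3, against 102, 51.5 and 94.9 CPM in NM1 WT 1 to 3. Its log2 fold change of -2.07 (SE 0.27, edgeR adjusted p = 0.00767) was larger in size than that of any granule gene, though within an SE of Ear6. It too lies on chromosome 11, 5.3 Mb from Myo1c.

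The surface genes Il5ra, Siglecf and Ccr3 overlapped between genotypes, which does not show that they stayed level. Il5ra had 36 to 102 counts in a library, so its fold change has a wide error. Il5ra, the specific chain of the interleukin 5 receptor, had 3.22, 2.12 and 2.06 CPM in NM1 KO 1 to 3 and 6.92, 2.09 and 5.11 CPM in NM1 WT 1 to 3 (log2 fold change -0.93, SE 0.47, edgeR adjusted p = 0.345). Siglecf, an inhibitory lectin of mature eosinophils, had 4.79, 4.14 and 7.97 CPM in NM1 KO 1 to 3 and 9.91, 5.56 and 8.79 CPM in NM1 WT 1 to 3 (log2 fold change -0.52, SE 0.34). Ccr3, the eotaxin receptor, had 10.3, 21.4 and 15.2 CPM in NM1 KO 1 to 3 and 17.4, 11 and 13.8 CPM in NM1 WT 1 to 3 (log2 fold change 0.16, SE 0.27). Il1rl1, the interleukin 33 receptor that mast cells and lymphocytes also carry, had 47.1, 65.3 and 37.4 CPM in NM1 KO 1 to 3 and 25.5, 37.6 and 32.1 CPM in NM1 WT 1 to 3 (log2 fold change 0.65, SE 0.21, edgeR adjusted p = 0.155). Cd24a, a surface protein that many marrow cells share, was higher in every NM1 KO library without passing the test (log2 fold change 0.35, SE 0.14, edgeR adjusted p = 0.235). Of the 9 tested genes of the list, 5 had a negative log2 fold change. Among these were Pirb (-0.60, SE 0.20, edgeR adjusted p = 0.172) and Cd300lf (-0.51, SE 0.22, edgeR adjusted p = 0.269), both with overlap.

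The ratios of 5 further genes to Prg2 were computed after the data had been seen. That of Alox15 differed by -0.47 on the log2 scale without overlap (2-sided exact permutation p = 0.1, adjusted over 5 ratios 0.125). Those of Ccr3 (1.70), Siglecf (1.04) and Mpo (1.27) were higher in NM1 KO without overlap, with the same p-values. That of Il5ra differed by 0.78 with overlap (exact permutation p = 0.2, adjusted 0.2). Since Prg2 fell, any gene that fell less or not at all is higher in NM1 KO relative to Prg2. These ratios thus show no rise of the gene itself.

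**Figure D4:**
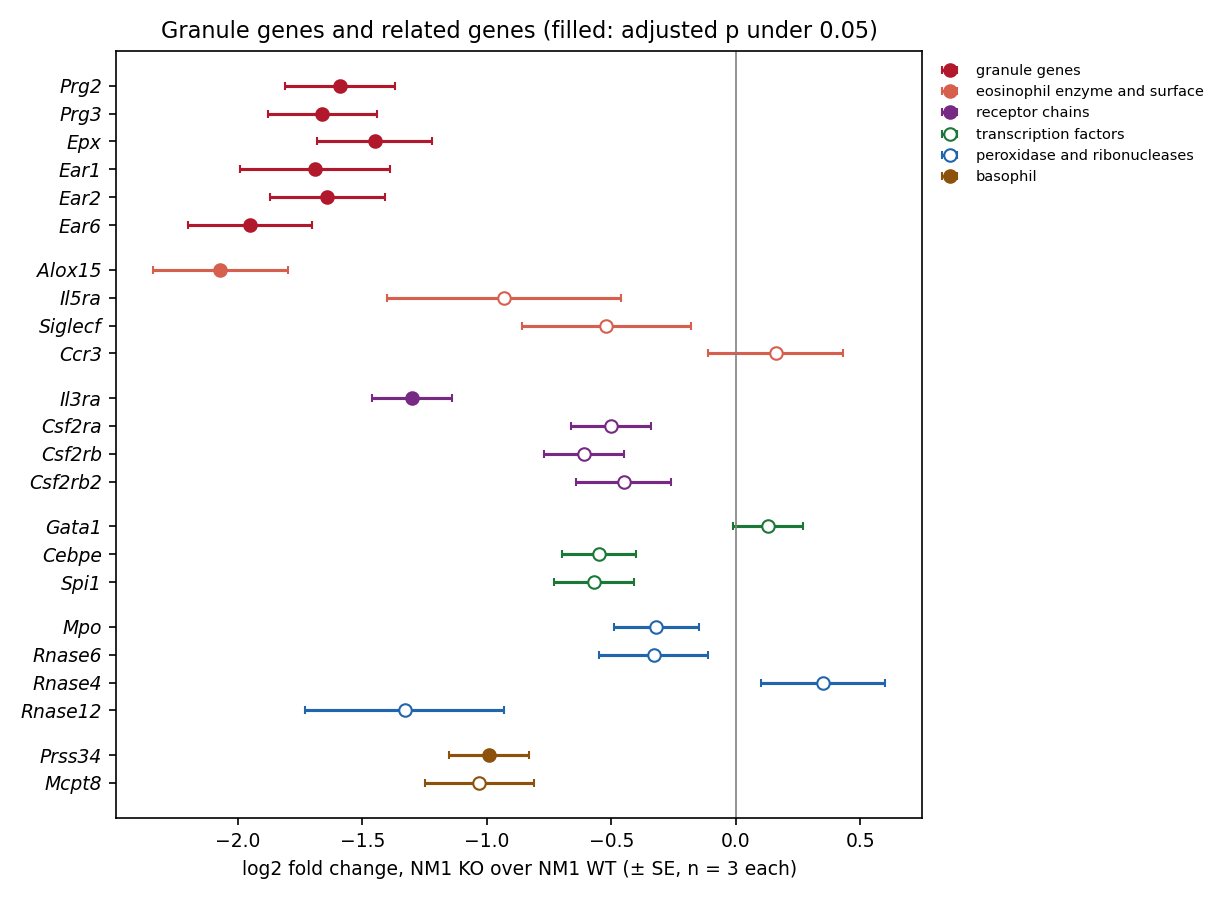
Log2 fold change of NM1 KO over NM1 WT with its SE (n = 3 each) for the granule genes and for related genes, filled where the edgeR adjusted p is under 0.05. The 6 granule genes lie between -1.95 and -1.45, while Ccr3, Siglecf, Il5ra, Mpo and Gata1 lie between -0.93 and 0.16 and are open. Of the other related genes, Alox15 (-2.07), Il3ra (-1.30) and Prss34 (-0.99) are filled, and Rnase12 (-1.33) and Mcpt8 (-1.03) are open.

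Of the 5 receptor chains for interleukin 5, interleukin 3 and GM-CSF, 1 fell, 0 rose and 4 missed the threshold (median log2 fold change -0.61). The chain that fell was Il3ra, the specific subunit of the interleukin 3 receptor, with 25.7, 23.4 and 28.7 CPM in NM1 KO 1 to 3, against 63.3, 53.0 and 75.6 CPM in NM1 WT 1 to 3 (log2 fold change -1.30, SE 0.16, edgeR adjusted p = 0.00743). Csf2rb, the beta chain common to the 3 receptors, had 93.0, 72.3 and 98.7 CPM in NM1 KO 1 to 3 and 132, 159 and 112 CPM in NM1 WT 1 to 3 (log2 fold change -0.61, SE 0.16, edgeR adjusted p = 0.106). Apart from Il5ra, all of these chains lay lower in NM1 KO without overlap. Of all tested genes, 9.75% lay lower without overlap and 0.186% were called lower.

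None of 11 transcription factors of the lineage passed edgeR's test over all genes, with a median of -0.14. Gata1, which eosinophils share with red cell and platelet precursors, averaged 208 ± 25.9 CPM in NM1 KO marrow, against 191 ± 25.4 CPM in NM1 WT marrow (SD). Cebpe, a factor of late granule formation in neutrophils and eosinophils, averaged 161 ± 24.5 CPM in NM1 KO marrow, against 236 ± 27.9 CPM in NM1 WT marrow, without overlap (log2 fold change -0.55, SE 0.15, edgeR adjusted p = 0.107). Spi1, the gene of PU.1, had a log2 fold change of -0.57 (SE 0.16, edgeR adjusted p = 0.113). Of 8 growth factors and chemoattractants of eosinophils, 2 were tested and 0 passed. Il5 and Il3 had 0 counts in all 6 libraries, which allows up to 3 read pairs in each.

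The 5 protein-coding genes most like the granule genes in profile were Alox15, Fbln2, Hk2, Apoc2 and Il3ra. Likeness is the root mean square difference between a gene's centred log2 CPM over the 6 libraries and the mean of the 6 granule genes, among 8820 genes with a mean of at least 10 CPM. It was 0.21 for Alox15, 0.24 for Fbln2 (an extracellular matrix fibulin), 0.25 for Hk2 (hexokinase 2), 0.28 for Apoc2 (a cofactor of lipoprotein lipase) and 0.31 for Il3ra. The granule genes themselves lay between 0.06 and 0.16 from their own mean, to which each of them contributes.

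Other cell types of the marrow also differed in level between genotypes, and their part in the fall of the granule genes was not tested. Of 14 basophil and mast cell markers, 9 were tested, 1 fell and 8 missed the threshold, with a summed level of 588 to 646 CPM in NM1 KO against 847 to 1013 CPM in NM1 WT. Of the 9, 8 had a negative log2 fold change. Without overlap, 5 lay lower in NM1 KO and 1 higher, where 9.75% of all tested genes lay lower. The basophil marker Mcpt8 narrowly missed the threshold (log2 fold change -1.03, SE 0.22, edgeR adjusted p = 0.0513). The mast cell genes Tpsab1, Mcpt4 and Mrgprb2 had 0 counts in all 6 libraries. Cma1, also of mast cells, had 4, 2 and 0 counts in NM1 KO 1 to 3, against 10, 8 and 8 counts in NM1 WT 1 to 3. Tpsb2 had 2, 4 and 0 counts in NM1 KO 1 to 3 and 0 in every NM1 WT library. Both were too low to be tested. Prss34, a protease of basophils, fell to 193 ± 31.4 CPM in NM1 KO, against 384 ± 64.0 CPM in NM1 WT (log2 fold change -0.99, SE 0.16, edgeR adjusted p = 0.0230). The call of Prss34 was lost without NM1 KO 2 (adjusted p = 0.0818) or NM1 WT 3 (0.0616). Of 13 neutrophil granule genes, 0 passed, and the log2 fold changes of all 13 were negative (median -0.46). Their summed level was 42363 to 54481 CPM in NM1 KO against 53040 to 71455 CPM in NM1 WT. Of 12 markers of monocytes and macrophages, which can also transcribe Ear1 and Ear2, 2 rose, 0 fell and 10 did not pass (588 to 918 CPM in NM1 KO, 481 to 522 CPM in NM1 WT). The 2 that rose were Vcam1 (log2 fold change 1.39, SE 0.26) and Mrc1 (1.46, SE 0.28), and 6 of the 12 were negative. The monocyte markers Nr4a1 (0.10), Treml4 (0.07), Ace (-0.57) and Cx3cr1 (-0.84) did not pass.

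In the other direction, 10 of 12 platelet and megakaryocyte markers rose (summed 2140 to 4555 CPM in NM1 KO, 1041 to 1364 CPM in NM1 WT). So did 5 of 9 stromal and bone markers (1339 to 2242 CPM in NM1 KO, 651 to 782 CPM in NM1 WT). Of 7 tested skeletal muscle markers, 5 rose (112 to 151 CPM in NM1 KO, 40.9 to 45.6 CPM in NM1 WT). Over all tested genes, 0.591% were called higher in NM1 KO. Erythroid markers summed to 6885 to 9601 CPM in NM1 KO against 6670 to 6769 CPM in NM1 WT, and 0 of 10 passed. B cell and plasma cell markers summed to 1059 to 1344 CPM in NM1 KO against 917 to 1133 CPM in NM1 WT, with 0 of 8 past the threshold, and T and NK cell markers to 111 to 125 CPM in NM1 KO against 113 to 121 CPM in NM1 WT, with 1 of 7 higher.

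The fall of the granule genes was present within each state of Y-linked detection. Among libraries with Y-linked counts, the summed level averaged 922 CPM in 2 NM1 KO libraries, against 2009 CPM in NM1 WT 2, a log2 ratio of -1.12. Among those without, it was 970 CPM in NM1 KO 3, against a mean of 3272 CPM in 2 NM1 WT libraries, a log2 ratio of -1.75. With 1 library on a side, neither value has a test. With Y-linked detection as a covariate, 5 of the 6 genes passed, and without NM1 WT 2 all 6 passed. All 6 also passed without NM1 KO 1, while leaving out NM1 KO 2 or NM1 KO 3 left 5 and leaving out NM1 WT 1 or NM1 WT 3 left 4.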

How the data were processed

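RNA of whole bone marrow was sequenced from 3 NM1 KO and 3 NM1 WT mice. Per the labels, NEBNext Ultra II libraries were run on a NextSeq. The deposited files hold raw counts per Ensembl gene. The submitters' processing notes name HISAT2 2.0.4, HTSeq, SAMtools 0.1.19, Trimmomatic 0.36 and FastQC, and the builds GRCm38 and mm10. They give no annotation release, strand setting or counting option. Between 99.1% and 99.5% of counts from 1 to 9 were even, as when both mates of a pair are counted, so halved counts were run as an alternative. Of 46603 genes, 46091 matched GENCODE M21 (GRCm38). Intervals and floors cover counting error only.

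Counts were filtered with filterByExpr, scaled with TMM and tested with edgeR 4.0.16 (R 4.3.3, Benjamini-Hochberg over 15069 genes), and the procedure was tested on simulated data. DESeq2 1.42.0 and limma 3.58.1 were alternatives. A negative log2 fold change means lower in NM1 KO. Sequences and promoter windows are from RefSeq (GRCm38.p6) and transcripts from GENCODE M21, aligned with Biopython 1.88. Coding sequences were compared in place of proteins. All 5 member windows found in RefSeq are those of Prg3, Epx, Ear1, Ear2 and Ear6.

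The members and gene lists were chosen with earlier results of these data known. The rule for naming genes took all members, up to 4 called genes of each list (the 2 tested genes of smallest p where under 2 passed), the peroxidase and ribonuclease neighbours, and the 5 nearest profiles; the text gives a part of these. Il5ra, Siglecf, Ccr3, Cd24a, Pirb, Cd300lf, Gata1, Ear-ps9 and genes at 0 were named after their values were seen. So were Nr4a1, Treml4, Ace, Cx3cr1, Cma1 and Tpsb2. Each mouse gave 1 library, so p-values measure the spread between mice.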

Additional observations from a re-analysis of the deposited data

How the results depend on the processing

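The number of genes called over the whole table, 117, moved most with the procedure. It was 1138 with no low-count filter, 541 with the likelihood ratio test, 794 with DESeq2, 482 with quality-weighted limma-voom, 207 without haemoglobin, immunoglobulin and mitochondrial genes, 37 with limma-voom and 60 with Y-linked detection as a covariate. With each library left out it ranged from 26 (without NM1 WT 1) to 344 (without NM1 WT 2). All 6 granule genes stayed negative under every alternative run, and Prg2, Prg3, Ear2 and Ear6 also stayed past the threshold under every one. Ear1 lost its call with the Y-linked covariate (-1.51) and without NM1 KO 2, NM1 KO 3, NM1 WT 1 or NM1 WT 3. With a library left out it ranged from -2.05 to -1.41. Epx ranged from -1.59 to -1.20, with its call lost without NM1 WT 1 or NM1 WT 3. The summed ribonuclease counts give no count of members, so that number was not computed there. Of the log2 ratios to Prg2, that of Prg3 ranged from -0.13 to 0.01, that of Epx from -0.03 to 0.19 and that of Ear2 from -0.10 (without NM1 WT 3, exact permutation p = 0.1) to 0.02 with a library left out, so their signs are not fixed. That of Ear1 ranged from -0.29 to -0.02. Ccl5, a chemokine, turned from -0.12 to 0.00 without NM1 KO 3 and to 0.04 without NM1 WT 1 (-0.28 without NM1 WT 2). Of 880 values of the other 42 named genes, 774 kept their direction and side of the threshold, 57 lost a call, 47 gained one and 2 changed sign. The cause of these changes was not tested.

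The replicate numbers were not taken as pairs. Same-numbered libraries correlated at 0.0636, 0.115 and 0.0609 in their deviations from the group means, only 1 of 3 over 0.1, though each library correlated best with its own number. Deviations from a group mean are tied to each other, so these correlations cannot decide whether the numbers are pairs. With the replicate block 421 genes passed, all 6 granule genes among them. The SE of the granule genes was 0.12 to 0.15 with the block, against 0.22 to 0.30 without it. The differences in ratio to Prg2 were the same by construction (the exact test over 8 sign assignments cannot go below 0.25 there). Low counts limit what can be seen of Il5ra and of the relatives Ear10, Rnase2a and Rnase2b.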
